A study of Mus musculus with 44 samples.

Results

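The mitochondrially encoded genes are the genes carried by the small circular genome of the mitochondrion rather than by the chromosomes of the nucleus. They were chosen by gene symbol, as every entry of both count tables whose symbol starts with mt-, and 37 of 55487 entries met that rule in each table. All 37 lie on chromosome M of GRCm38: 13 messenger RNAs, 2 ribosomal RNAs and 22 transfer RNAs (tRNAs).

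The study raised RXRa, the retinoid X receptor alpha, in the mouse nucleus accumbens with viral vectors and measured RNA there. Bulk tissue came from males infused with the herpes simplex virus vector HSV-GFP (4 libraries) or HSV-RXRa-GFP (4 libraries). Nuclei sorted as D1 or D2, the striatal neurons named for the dopamine receptors Drd1 and Drd2, came from females and males given an adeno-associated virus. Its insert is active only where Cre recombinase is present: AAV9-CAG-DIO-EGFP in controls and AAV9-CAG-DIO-EGFP-P2A-RXRa in the other arm. D1 female had 5 EGFP and 4 RXRa libraries, D1 male 5 and 4, D2 female 4 and 4, and D2 male 5 and 4. The strain, the age and the source of Cre were not given in the labels. Nothing in the labels says whether libraries came from separate animals, so p-values measure the spread between these libraries, which may be partly technical.

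Mitochondrial DNA is transcribed inside the organelle by its own RNA polymerase, Polrmt, with the packaging factor Tfam, as long transcripts from both strands. These are cut at the tRNAs that lie between the messenger and ribosomal RNAs, and most of the messengers then receive a short poly(A) tail. The messengers encode subunits of the respiratory chain: complex I (Nd genes), complex III (Cytb), complex IV (Co genes) and the ATP synthase (Atp genes). Neurons depend on this chain for most of their ATP, and its transcripts belong to the cytoplasm, so that nuclei should hold few of them. Fragments of mitochondrial DNA have also been copied into nuclear chromosomes during evolution, and such copies can share sequencing reads with the genes of the organelle.

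The depth was 21567565 to 29167142 gene counts per bulk library and 12211655 to 27757463 per sorted library. The vector RXRa entry had 0 counts in the 4 bulk controls and 567 to 914 in the 4 bulk RXRa libraries. In the sorted table it had at most 17 counts in 19 EGFP libraries and at least 1216 in 16 RXRa libraries. The summed D2 markers (Drd2, Penk, Adora2a, Gpr6, Sp9) took 0.0823% to 0.215% of counts in D2 nuclei and 0.0106% to 0.0329% in D1 nuclei. The summed D1 markers (Drd1, Pdyn, Tac1, Isl1, Eya1) took 0.019% to 0.0284% in D1 nuclei and 0.0112% to 0.0193% in D2 nuclei, so that the ranges overlapped slightly. D2 libraries were also shallower, with EGFP medians of 17297954 counts in D2 female and 13308407 in D2 male against 25502729 and 24786658 in D1 female and D1 male.

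The messenger RNAs differ in whether a read can tell the mitochondrial gene from a nuclear copy. Among annotated transcripts, 11 nuclear pseudogenes aligned to a mitochondrial gene over at least 200 bases at 95% identity or more, and 7 of them stand in a row on chromosome 1 between 24611535 and 24616197. The other 4 are on chromosome 2 (Gm13341, Gm13340, Gm13339) and chromosome 13 (Gm4076). The row on chromosome 1 repeats a stretch of chromosome M from 6390 to 11042, which runs from the end of mt-Co1 into mt-Nd4 and encloses 11 mitochondrial genes, 5 of them tRNA genes. Pairs from mt-Co2, mt-Nd3 and mt-Nd2 are printed because they show what a read would have to separate. Each is a 75-base stretch, 5′ to 3′ on the strand of the gene, and capitals mark bases that differ within the pair. The first pair is the start of mt-Co2 (subunit 2 of complex IV, chrM:7013-7087, plus strand) and of its copy Gm28661 (chr1:24615491-24615565, minus strand), which are identical.

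mt-Co2: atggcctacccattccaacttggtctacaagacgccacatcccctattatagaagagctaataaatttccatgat
Gm28661: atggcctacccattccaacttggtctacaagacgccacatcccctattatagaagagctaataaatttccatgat

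The second is the start of mt-Nd3 (complex I, chrM:9459-9533, plus strand) and of Gm28438 (chr1:24613045-24613119, minus strand), which differ over their 345 aligned bases only by T3C, counted from the first base of mt-Nd3.

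mt-Nd3: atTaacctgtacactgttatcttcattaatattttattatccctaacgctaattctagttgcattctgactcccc
Gm28438: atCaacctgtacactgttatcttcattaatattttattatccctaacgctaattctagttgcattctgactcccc

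The third is from mt-Nd2 (complex I, chrM:4442-4516, plus strand), outside the copied stretch of chromosome 1, beside Gm13339 (chr2:22590459-22590533, minus strand). This copy matched 510 bases at 96.7% identity, and the 75 bases shown hold T579C and T603A, counted from the first base of mt-Nd2.

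mt-Nd2: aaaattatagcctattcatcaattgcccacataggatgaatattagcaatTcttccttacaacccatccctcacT
Gm13339: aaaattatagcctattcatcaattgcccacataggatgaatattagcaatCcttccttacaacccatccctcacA

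Of all windows of 150 bases (the read length) in mt-Co2, 99.4% occurred unchanged in an annotated nuclear transcript. The share was 99.4% in mt-Atp6, 99.8% in mt-Co3, 97.0% in mt-Nd3 and 98.0% in mt-Nd4l. It was 59.2% in mt-Nd4 and 23.6% in mt-Co1. It was 0% in mt-Nd1, mt-Nd2, mt-Nd5, mt-Nd6, mt-Cytb and both ribosomal RNAs. mt-Atp8 also had 0%, but it lies inside the copied stretch, where the annotation leaves 233 bases between Gm10925 and Gm28661 without a gene. How reads that match more than 1 place were treated is not given in the sources used here.

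In bulk, the level of a messenger RNA followed this split. Levels are given as CPM per kb (counts per 1000000 counts of the TMM-scaled library, divided by the gene's length). The 7 messengers with at most 59.2% of windows in a copy, mt-Atp8 aside, had bulk medians from 914 to 2664 CPM per kb. mt-Co1, the catalytic subunit of complex IV, was at the top with 2664, followed by mt-Cytb at 2096 and mt-Nd1 at 1938. mt-Nd2 (1295), mt-Nd5 (1263), mt-Nd4 (1004) and mt-Nd6 (914) came next. The order down to mt-Nd2 held in all 8 libraries, while the ranges of mt-Nd2 and mt-Nd5 overlapped. Reads that match a copy may not have been counted, which would understate mt-Nd4 (59.2% of windows) and mt-Co1 (23.6%). The place of mt-Nd4 in this order, and in sorted nuclei below, is therefore uncertain.

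The 5 messengers with 97.0% or more of their windows in a copy had medians of 29.1 to 41.5 CPM per kb, and mt-Atp8 had 5.21. All 6 also had higher coefficients of variation between libraries than the other 7 messengers. mt-Co3, subunit 3 of complex IV, had 1120, 743, 418 and 668 counts in the 4 GFP libraries and 1329, 464, 190 and 1014 in the RXRa libraries. Its highest CPM was 5.92 times its lowest, with a coefficient of variation of 53.1% against 3.67% from counting alone. For mt-Co1 the highest library was 1.09 times the lowest and the coefficient of variation was 2.72%. The other messengers of the copied stretch had coefficients of 47.4% in mt-Atp6, 23.9% in mt-Co2, 33.0% in mt-Nd4l and 9.26% in mt-Nd3, where counting alone gives 5.22%. Among the other 7 messengers the highest was 5.75%, in mt-Nd6, where counting alone gives 0.894%.

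The nuclear copies also carried counts in bulk, to a degree that differed between pairs. Gm28661 held 27.2% to 63.9% of the counts of mt-Co2 and itself together, and Gm10925 held 32.4% to 67.1% of those of mt-Atp6 and itself. For the mt-Co3 pair the copy's share was 18.5% to 55.0%, for the mt-Nd4l pair 13.5% to 32.9%, and for mt-Nd3, with its single mismatch, 5.12% to 11.3%. Adding the copy did not bring these messengers near their neighbours in counts. mt-Co3 (784 bases) with Gm28437 reached 422 to 1632 counts, while mt-Nd4 alone (1378 bases) had 28758 to 39696. Reads that match both places may be missing from both, so this sum cannot show how many reads were lost. In these files the 5 messengers with near-complete copies and mt-Atp8 are therefore given as uncertain.

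In sorted nuclei the same genes were low. mt-Nd5 and mt-Co1 had medians of 20.7 and 20.6 CPM per kb over 35 libraries, mt-Nd6 17.9, mt-Cytb 17.7, mt-Nd2 16.01, mt-Nd1 15.3 and mt-Nd4 9.25. The spread across libraries was wider than the steps between these genes: mt-Co1 ran from 368 to 1529 counts. mt-Nd3 had a median of 2.42 CPM per kb, mt-Nd4l 1.31, mt-Co2 0.642, mt-Co3 0.380 and mt-Atp6 0.206. mt-Atp8 had 0 counts in 21 of 35 libraries and at most 2, where a count of 0 allows up to 0.0994 to 0.263 CPM. Long protein-coding genes without any count in bulk had a median density of 0.372 to 0.566 CPM per kb of gene body in the sorted libraries, which is called silent-gene density below. mt-Co2, mt-Co3 and mt-Atp6 were near that density, and mt-Nd1, the messenger with a median of 15.3, was well above it. The density comes from genes on autosomes, so it sets no level for reads from mitochondrial DNA. Whether such reads are among the sorted counts was not tested. The 11 nuclear copies had median counts from 0 to 19 in sorted nuclei.

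**Figure D1:**
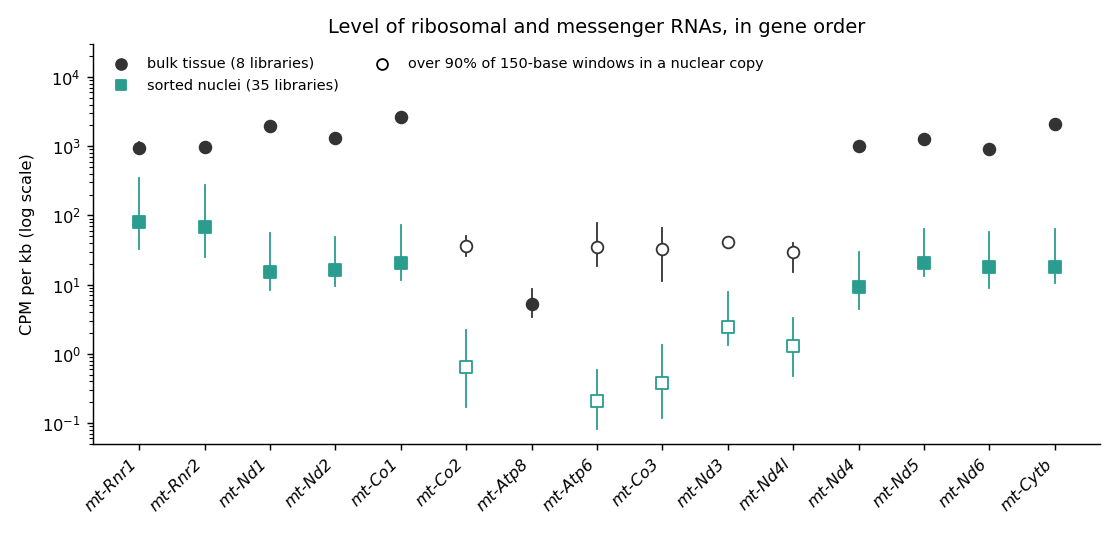
Median level in CPM per kb (log scale) of the 2 ribosomal and 13 messenger RNAs, placed in the order of the mitochondrial genome, with lines from the lowest to the highest library above 0. Circles are bulk and squares sorted nuclei, open where over 90% of 150-base windows occur in a nuclear copy; mt-Atp8 has a sorted median of 0 and is not drawn there. The open symbols form a trough between mt-Co1 and mt-Nd4 in both tables, and in bulk mt-Atp8 lies in it too.

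The bulk and sorted tables differ at once in the compartment, the mix of cell types, the extraction kit, the virus and the sexes. They also differ in the RNA selection (poly(A) in bulk, ribosomal depletion of total RNA in the sorted nuclei). The differences between the tables below cannot be told apart from all of these, and no test was made across the tables. The mitochondrial genes took 1.60% to 1.71% of counts in the 8 bulk libraries and 0.0184% to 0.118% in the 35 sorted libraries, with medians of 1.65% and 0.0346%. The lowest bulk library thus lay far above the highest sorted library, and the ratio of the medians was 47.7. These shares, and those by class below, include the uncertain messengers of the copied stretch and may miss part of their RNA. For comparison, mRNAs of cytosolic ribosomal proteins, a class of abundant cytoplasmic messengers, were 26.7 times higher as a share in bulk. RNAs known to stay in the nucleus took similar shares in both tables, with a ratio of 0.824. Cell type markers had ratios from 1.68 (endothelial) to 27.6 (oligodendrocyte), with astrocyte markers at 15.9 and D2 markers at 5.04. Nuclear-encoded mRNAs for mitochondrial RNA processing and stability had 1.89, and those of regulators of mitochondrial biogenesis 0.313. The causes of these ratios were not tested.

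The classes did not drop alike. The ratio of the bulk to the sorted median share was 97.3 for the messengers, 12.98 for the ribosomal RNAs and 3.07 for the tRNAs. In bulk the ribosomal RNAs made up 14.6% to 16.2% of mitochondrial counts, and in sorted nuclei 40.8% to 68.7%. mt-Rnr2, the large ribosomal RNA, went from a median of 978 CPM per kb in bulk to 66.9 in sorted nuclei, and mt-Rnr1, the small one, from 955 to 80.8. The ratio of the large to the small RNA per kb was 0.982 to 1.07 in bulk and 0.670 to 1.14 in sorted nuclei, with medians of 1.03 and 0.836. mt-Nd6, the messenger that is read from the opposite strand to the other 12, made up 3.19% to 3.58% of messenger counts in bulk and 4.80% to 7.28% in sorted nuclei. It overlaps mt-Nd5 by 14 bases on the other strand, and use of strand in counting is not given in the sources used here.

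The tRNA genes behaved least alike between the tables. The sequences of 3 of them are printed, in lower case throughout, because they mark the extremes: mt-Tp for proline (chrM:15356-15422, minus strand), mt-Tv for valine (chrM:1025-1093, plus strand) and mt-Tk for lysine (chrM:7700-7764, plus strand).

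mt-Tp: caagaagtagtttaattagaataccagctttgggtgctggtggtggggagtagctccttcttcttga
mt-Tv: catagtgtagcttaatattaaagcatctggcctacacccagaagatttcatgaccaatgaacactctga
mt-Tk: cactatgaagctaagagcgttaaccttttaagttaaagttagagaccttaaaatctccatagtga

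mt-Tp had 597 to 976 counts in every bulk library, a median of 422 CPM per kb, against 14.2 in sorted nuclei. The next tRNA in bulk, mt-Te for glutamate, had 67.6, and mt-Tc (cysteine) and mt-Tn (asparagine) had 59.6 and 46.2. The 2 leucine tRNA genes mt-Tl1 and mt-Tl2 stood at 31.8 and 21.5 in bulk and 10.9 and 7.41 in sorted nuclei, and mt-Tw (tryptophan) at 20.2 and 12.5. These 7 were all higher in bulk. mt-Tv showed the reverse: 5 of 8 bulk libraries had 0 counts and none had more than 1, while its sorted median was 33 counts or 24.8 CPM per kb, the highest sorted median of the 22. mt-Tv lies between the 2 ribosomal RNA genes. mt-Ty (tyrosine) with 15.7 in bulk and 21.1 in sorted nuclei, mt-Th (histidine) with 12.2 and 16.6, mt-Ti (isoleucine) with 3.69 and 13.2 and mt-Tt (threonine) with 0.567 and 16.1 were also higher in sorted nuclei. mt-Tf and mt-Td had 0 counts in all 8 bulk libraries, which allows up to 0.103 to 0.138 CPM. In sorted nuclei mt-Tf had a median of 7 counts and mt-Td 2.

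Outside the stretch copied on chromosome 1, the 17 tRNA genes had sorted medians from 6.21 to 24.8 CPM per kb. The 5 inside it (mt-Ts1, mt-Td, mt-Tk, mt-Tg, mt-Tr) had 0 to 7.24, and their bulk medians were 0 to 4.89 against 0 to 422 outside. mt-Tk had at most 1 count in any bulk library and a sorted median of 0. The 22 genes are 59 to 75 bases long, shorter than a read, and these levels were not read as amounts of mature tRNA.

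**Figure D2:**
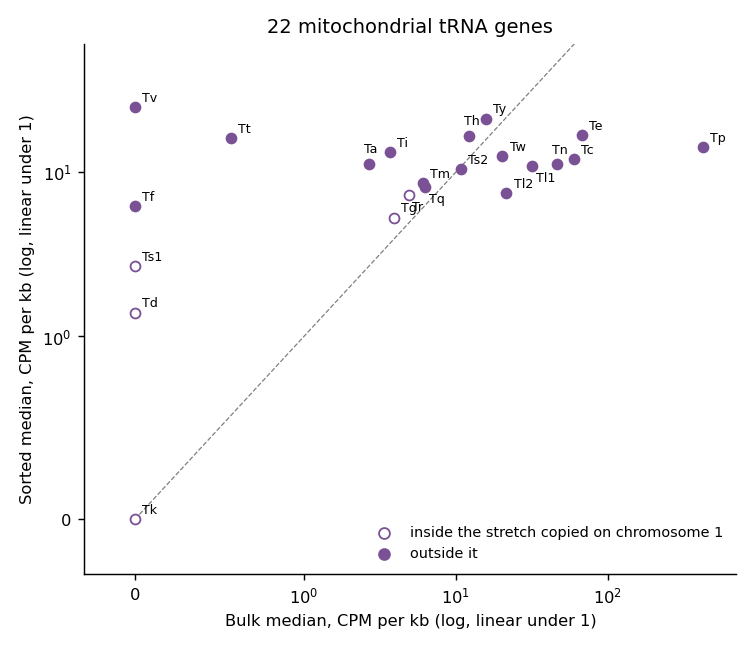
Median level of each of the 22 tRNA genes in CPM per kb, bulk on the horizontal and sorted nuclei on the vertical axis, both log with a linear part under 1, labelled without the prefix mt-. Open circles lie inside the stretch copied on chromosome 1, and the dashed line marks equal levels; mt-Tp stands at 422 in bulk and mt-Tv at 0.

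The first comparison asks whether RXRa changed mitochondrial RNA in whole tissue, and it did not detectably do so. The mitochondrial share was 1.60%, 1.69%, 1.71% and 1.63% in the GFP libraries and 1.65%, 1.63%, 1.66% and 1.68% in the RXRa libraries, or 1.66% ± 0.0471 and 1.66% ± 0.0202 (SD, n = 4 each). The RXRa libraries all lay within the GFP range. In bulk tissue, fewer cells of a type and less RNA per cell cannot be told apart. Of the 27 mitochondrial genes that passed the filter on low counts, edgeR called 0 at an adjusted p under 0.05, and DESeq2 also called 0, where edgeR called 3.7% of the 18579 genes tested (3.01% higher, 0.689% lower). With edgeR 1 of the 27 had an unadjusted p under 0.05, beside 21.5% of all genes. Fitted values were below 0 for 22 of 27, with a median log2 fold change of -0.07 beside -0.02 over all genes.

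The smallest p in bulk belonged to mt-Co2, one of the messengers whose reads match a copy. It had 42.1, 29.1, 40.4 and 50.2 CPM per kb with GFP and 35.9, 25.7, 26.1 and 35.3 with RXRa, so that the groups overlapped. Its log2 fold change was -0.40 (SE 0.17, edgeR adjusted p 0.23). mt-Cytb had 2098, 2161, 2196 and 2147 CPM per kb with GFP and at most 2094 with RXRa, and it was the 1 gene of the 27 whose groups did not overlap, beside 13.2% of all genes tested. Its log2 fold change was -0.05 (SE 0.05, edgeR adjusted p 0.638). The abundant messengers were measured tightly: 2 standard errors on either side gave 0.930 to 1.10 times the GFP level for mt-Co1 and 0.910 to 1.07 times for mt-Nd1. mt-Atp6 at -0.52 (SE 0.36) and mt-Co3 at 0.14 (SE 0.50) were far less precise.

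In sorted nuclei the mitochondrial share differed more between libraries of 1 group than between vectors. In D1 female it was 0.0283% ± 0.00579 with EGFP (SD, n = 5) and 0.0289% ± 0.00702 with RXRa (SD, n = 4). In D1 male it was 0.0293% ± 0.00931 (SD, n = 5) and 0.0342% ± 0.0109 (SD, n = 4). In D2 female it was 0.0433% ± 0.0216 and 0.0584% ± 0.0418 (SD, n = 4 each). In D2 male it was 0.0564% ± 0.0353 (SD, n = 5) and 0.0707% ± 0.0309 (SD, n = 4). The mean was higher with RXRa in each of the 4 pairs and the ranges overlapped in each. Single libraries reached 0.118% (D2 female RXRa replicate 2), 0.116% (D2 male EGFP replicate 4) and 0.109% (D2 male RXRa replicate 3).

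**Figure D3:**
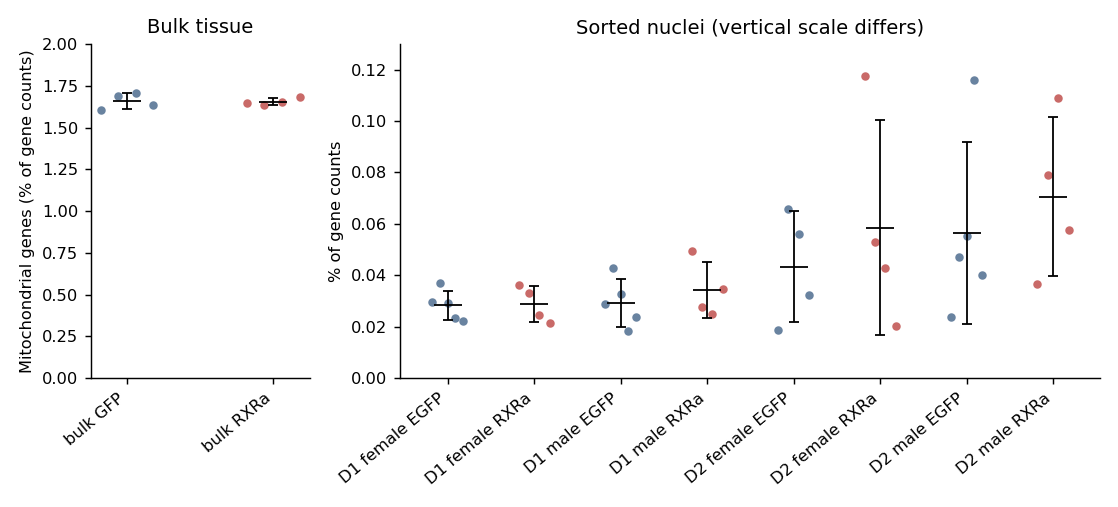
Share of gene counts that fell on the 37 mitochondrial genes, in percent, for each library (points) with the group mean and SD (bars), bulk on the left and sorted nuclei on the right with its own scale. Bulk libraries sit between 1.60% and 1.71%, and D2 groups spread more widely than D1 groups.

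Over both sexes, edgeR called 0 of 32 tested mitochondrial genes in D1, where it called 0% of 43902 genes, and DESeq2 called 0. None of the 32 had an unadjusted p under 0.05, beside 8.02% of all genes, and the groups overlapped for all 32, beside 0.0387% of all genes that did not overlap. Of the 32, 10 had a fitted value above 0, and the median was -0.08 beside -0.01 over all genes. The tRNA for phenylalanine, mt-Tf, had the smallest p at -0.56 (SE 0.32, edgeR adjusted p 0.656). mt-Rnr2 ran from 34.0 to 66.9 CPM per kb in D1 female EGFP and from 47.6 to 97.2 with RXRa, and from 28.6 to 89.97 in D1 male EGFP and from 40.6 to 120 with RXRa. These ranges overlapped in both sexes, and its log2 fold change was 0.49 (SE 0.34, edgeR adjusted p 0.697). Values were above 0 for 2 of 32 in D1 female and for 25 of 32 in D1 male. For the sex difference itself edgeR and DESeq2 called 0 of 32, where edgeR called 0% of all genes. Of the 32, 0 had an unadjusted p under 0.05 for that difference, beside 2.08% of all genes, and the smallest p was that of mt-Tp at -0.82 (SE 0.54, edgeR adjusted p 1.0), female minus male.

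In D2 over both sexes edgeR called 0 of 32 mitochondrial genes, where 22.1% of 43902 genes were called (6548 higher, 3135 lower), and DESeq2 also called 0. With edgeR, 1 of the 32 had an unadjusted p under 0.05, beside 37.1% of all genes, and the groups overlapped for all 32, beside 0.205% of all genes that did not overlap. Fitted values were above 0 for 27 of 32, with a median of 0.13 beside -0.04 over all genes. With library totals as the only scaling, 2063 genes were called higher and 9325 lower, the median of all genes was -0.20 and that of the mitochondrial genes -0.03, with 14 of 32 above 0. All 11 messengers that passed the filter had values above 0 under TMM, from 0.08 to 0.42. Silent-gene density had lower means with RXRa, at 0.532 CPM per kb with EGFP and 0.456 with RXRa in D2 female, and 0.530 and 0.454 in D2 male. A fit with that density as a covariate gave a median of 0.35 over the 32, with 31 above 0, and called 0 of all genes, 1744 having an unadjusted p under 0.05.

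mt-Rnr2 had the smallest p in D2. It stood at 25.3, 52.2, 112 and 128 CPM per kb in D2 female EGFP and at 41.8, 87.8, 138 and 278 in D2 female RXRa. In D2 male it stood at 29.96, 80.4, 87.2, 102 and 227 with EGFP and at 72.3, 170, 186 and 279 with RXRa. The groups overlapped in both sexes. Its log2 fold change was 0.79 (SE 0.35, edgeR adjusted p 0.0989). Without D2 male EGFP replicate 4 it was 1.08 (edgeR adjusted p 0.0289), without D2 male RXRa replicate 1 0.92 (0.0403) and without D2 female RXRa replicate 5 0.92 (0.049), so that leaving out any of these 3 libraries made it pass. mt-Rnr1 had 0.62 (SE 0.34, edgeR adjusted p 0.186) and passed without D2 male EGFP replicate 4, at 0.94 (edgeR adjusted p 0.0437). Other omissions weakened both genes. Over all 17 single omissions mt-Rnr2 ran from 0.48 to 1.08 (edgeR adjusted p 0.0289 to 0.325). In the same fits mt-Rnr1 ran from 0.35 to 0.94 (edgeR adjusted p 0.0437 to 0.485). Both are ribosomal RNAs in ribosomal-depleted libraries, and the part of depletion in these values was not tested. The median over the mitochondrial genes tested was below 0 without D2 female RXRa replicate 2 (-0.08) or D2 male RXRa replicate 3 (-0.09).

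Within a sex, edgeR called 0 of 32 mitochondrial genes in each of D1 female, D1 male, D2 female and D2 male, where it called 0% of all genes in each. DESeq2 called 0 of the 32 in each as well, where it called 4, 0, 3027 and 39 of all genes, in that order. With edgeR none of the 32 had an unadjusted p under 0.05 in any of the 4, beside 6.29%, 3.02%, 25.2% and 19.7% of all genes, in that order. The groups overlapped for all 32 in each comparison, while they did not for 2.39%, 1.29%, 6.23% and 2.59% of all genes tested. The smallest p in D1 female was that of mt-Tt at -0.66 (SE 0.36, edgeR adjusted p 0.791) and in D1 male that of mt-Tl2 at 0.39 (SE 0.36, edgeR adjusted p 0.978). mt-Rnr2 was the gene with the smallest p in both D2 sexes, at 0.80 (SE 0.51, edgeR adjusted p 0.313) in females and 0.77 (SE 0.48, edgeR adjusted p 0.357) in males.

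Whether the RXRa effect differed between groups was tested directly. For the sex difference in D2, edgeR and DESeq2 called 0 of 32, where edgeR called 0% of all genes, and 0 of 32 had an unadjusted p under 0.05, beside 3.02% of all genes. The smallest p there was that of mt-Tl1 at 0.97 (SE 0.60, edgeR adjusted p 1.0), female minus male. For the D2 effect minus the D1 effect, both tools called 0 of 32, where edgeR called 0% of all genes, and 0 of 32 had an unadjusted p under 0.05, beside 8.22% of all genes. Values were above 0 for 29 of 32, with a median of 0.27 beside 0.00 over all genes, and mt-Tp had the smallest p at 0.54 (SE 0.37, edgeR adjusted p 0.632).

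**Figure D4:**
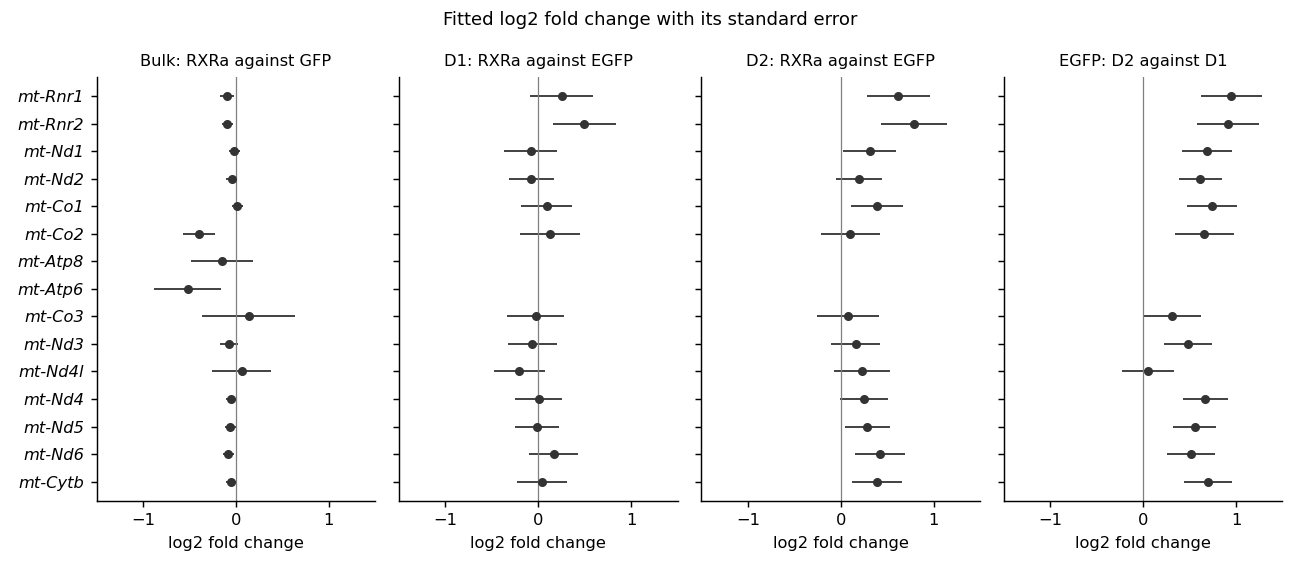
Fitted log2 fold changes (points) with their standard errors (bars) for the ribosomal and messenger RNAs in 4 comparisons; mt-Atp8 and mt-Atp6 did not pass the filter in sorted nuclei. Bulk bars are short for the abundant messengers, and in the comparison of D2 with D1 under EGFP all values lie above 0.

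The balance of ribosomal to messenger RNA is given as a description, with no test. The sorted libraries were ribosomal-depleted, and the part of depletion in these ratios was not tested. Their messenger counts include the uncertain messengers of the copied stretch. In bulk there were 0.173, 0.182, 0.184 and 0.195 ribosomal counts per messenger count with GFP and 0.171, 0.175, 0.177 and 0.181 with RXRa. In D2 male the EGFP libraries had 0.769, 1.11, 1.37, 1.43 and 1.48 and the RXRa libraries 1.68, 1.70, 1.98 and 2.35, with no overlap. In D1 female the ranges were 0.790 to 1.22 and 1.02 to 1.89, in D1 male 0.859 to 1.55 and 0.880 to 1.59, and in D2 female 0.803 to 1.49 and 1.05 to 2.02, with overlap in each. The ratio of mt-Rnr2 to mt-Rnr1 per kb did not overlap in D1 female (0.800 to 0.882 with EGFP and 0.909 to 1.14 with RXRa), and overlapped in the other 3 sorted pairs. These ratios share their counts with the genes already tested, and which of them to print was chosen after their values were seen. Of all genes tested, 2.59% had groups that did not overlap in D2 male and 2.39% in D1 female. Those shares are for the CPM of single genes, and none was worked out for ratios, so they are no measure of how rare such a ratio is.

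**Figure D5:**
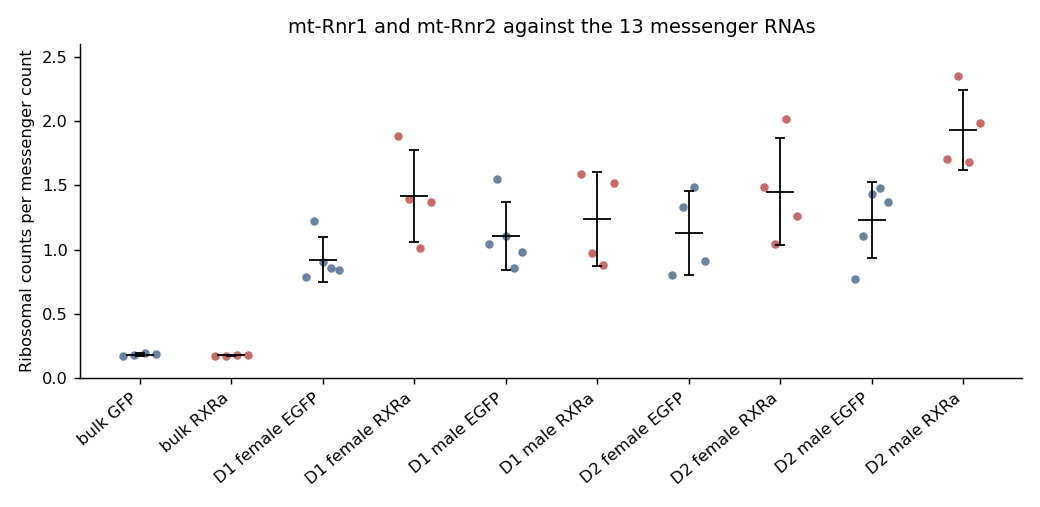
Counts of mt-Rnr1 and mt-Rnr2 per count of the 13 messenger RNAs in each library (points), with the group mean and SD (bars). Bulk libraries sit between 0.171 and 0.195, and the D2 male RXRa libraries, at 1.68 to 2.35, lie above the D2 male EGFP libraries. Bulk libraries were poly(A)-selected and sorted libraries ribosomal-depleted.

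D2 and D1 nuclei were also compared under EGFP alone. All 32 mitochondrial genes had values above 0, that is higher in D2, with a median log2 fold change of 0.45 beside 0.01 over all genes. edgeR called 0 of the 32, where it called 0.121% of all genes (0.0478% higher, 0.0729% lower), and DESeq2 called 0. With edgeR 11 of the 32 had an unadjusted p under 0.05, beside 10.5% of all genes, and the 32 share their libraries and are not independent. mt-Rnr1 had the smallest p, at 0.95 (SE 0.33, edgeR adjusted p 0.293), followed by mt-Co1 at 0.74 (SE 0.27, edgeR adjusted p 0.313) and mt-Rnr2 at 0.92 (SE 0.33, edgeR adjusted p 0.317). mt-Co1 ran from 13.8 to 20.6 CPM per kb in D1 female and 11.6 to 25.9 in D1 male, and from 11.7 to 38.2 in D2 female and 15.7 to 66.4 in D2 male. Of the D2 libraries, 2 of 4 in females and 3 of 5 in males lay above the D1 range of their sex. Without D2 male EGFP replicate 4 the median over the 32 was 0.30, with 30 above 0. Depth differed in the same direction as sorted population, as given above, and its part in this pattern was not tested.

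The nuclear genes that serve mitochondrial transcription were read from 3 lists of 18, 28 and 8 genes: mitochondrial DNA transcription and replication, mitochondrial RNA processing and stability, and nuclear regulators of mitochondrial biogenesis. In bulk 0 of 18, 1 of 28 and 0 of 8 were called. The 1 was Pnpt1, which encodes a mitochondrial RNA exonuclease, at 0.67 (SE 0.08, edgeR adjusted p 0.00688), beside the 3.7% of all genes given above. It failed without bulk GFP replicate 4 (edgeR adjusted p 0.0502) and with the replicate number as a block (edgeR adjusted p 0.0543). Tfam was at -0.07 (SE 0.05), Polrmt at 0.00 (SE 0.07) and Ppargc1a, a coactivator of mitochondrial biogenesis, at 0.05 (SE 0.15).

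In D1 edgeR called 0 of the 54 listed genes, of which 3 had an unadjusted p under 0.05, beside 0% called and 8.02% at that p over all genes, and DESeq2 called 0. For RXRa against EGFP in D1, Tfam was at 0.02 (SE 0.08), Polrmt at 0.05 (SE 0.10) and Ppargc1a at 0.12 (SE 0.06), and the first 2 reversed with library totals only, to -0.06 and -0.02. In D2 against D1 under EGFP edgeR called 0 of the 54, of which 3 had an unadjusted p under 0.05, beside 0.121% called and 10.5% at that p over all genes, and DESeq2 called 0.

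For RXRa against EGFP in D2, 4 of 18, 12 of 28 and 4 of 8 were called, all 20 higher, where 14.9% of all genes were called higher and 7.14% lower. Those shares are over 43902 genes, where 18579 were tested in bulk, and no set of genes of like level was compared. The medians of the 3 lists were 0.12, 0.24 and 0.17, beside -0.04 over all genes. Other lists moved in the same libraries, and their part in this count was not tested. Called higher were 4 of 5 D2 markers, 7 of 10 nuclear-retained RNAs and 21 of 38 cytosolic ribosomal protein mRNAs, and 2 of 5 astrocyte markers (Gfap, Aqp4, Slc1a3, Gja1, Aldh1l1) were called lower. Of 5 D1 markers 2 were called higher and 1 lower, and of 5 microglia markers 1 was called each way. From EGFP to RXRa the mean summed share of the D2 markers went from 0.107% to 0.170% in females and from 0.129% to 0.1655% in males. Over both sexes that share ran from 0.0823% to 0.1505% with EGFP and from 0.0940% to 0.215% with RXRa, so that the groups overlapped. Astrocyte markers went from 0.01475% to 0.0114% in females and from 0.0152% to 0.01285% in males. In the same order, endothelial markers went from 0.02132% to 0.01681% and from 0.0205% to 0.01837%. Oligodendrocyte markers went from 0.01547% to 0.01322% and from 0.01784% to 0.01645%. Microglia markers went from 0.01278% to 0.01083% and from 0.01226% to 0.01184%. Red blood cell markers rose, from 0.001735% to 0.002099% and from 0.001329% to 0.001549%. Silent-gene density was lower too, as given above. Fastk, of a family of mitochondrial RNA-binding proteins, rose by 0.62 (SE 0.17, edgeR adjusted p 0.0152), Trnt1, which adds the CCA end of tRNAs, by 0.56 (SE 0.19, edgeR adjusted p 0.032) and Mterf2, a transcription factor of the organelle, by 0.49 (SE 0.13, edgeR adjusted p 0.0137). Polrmt rose by 0.37 (SE 0.11, edgeR adjusted p 0.0212). Tfam was at 0.23 (SE 0.09, edgeR adjusted p 0.0513) and Ppargc1a at 0.13 (SE 0.07, edgeR adjusted p 0.153), which was -0.04 with library totals only. With the silent-gene density covariate the values were 0.19 for Fastk, 0.31 for Trnt1, 0.17 for Mterf2 and 0.11 for Polrmt, each with an edgeR adjusted p of 1.0. With library totals only Polrmt was at 0.20 (edgeR adjusted p 0.144), Trnt1 at 0.37 (edgeR adjusted p 0.0768) and Mterf2 at 0.30 (edgeR adjusted p 0.0332). The count of 20 was 9 with library totals only and 0 with silent-gene density as a covariate. It was also 0 without D2 female RXRa replicate 4, 2 without D2 male RXRa replicate 5, and 32 without D2 male RXRa replicate 1. It was 13 without D2 female EGFP replicate 1 or D2 male EGFP replicate 1, and 11 without D2 female EGFP replicate 5 or D2 male RXRa replicate 3.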

How the data were processed

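The authors deposited 2 tables of raw gene counts, both whole numbers. The submitters' processing notes name FastQC, Trimmomatic, HISAT2, Picard, featureCounts, Subread and the build GRCm38, with no versions. Per the labels' protocols, bulk libraries were poly(A)-selected and sorted libraries ribosomal-depleted total RNA. Samples were grouped from the labels, and 1 sorted library whose title and vector label disagree entered no comparison. Symbols and positions come from GENCODE M21, which held 55394 of 55487 identifiers. The members and lists were chosen with earlier results of these data known.

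edgeR 4.0.16 in R 4.3.3 ran the quasi-likelihood test with filterByExpr and TMM, on 8 bulk and 35 sorted libraries separately. The vector entries stayed out. Values over both sexes weighted the sexes equally. The SE of a log2 fold change is its absolute value divided by the square root of the F statistic of the test, and so is approximate. A gene was called at a Benjamini-Hochberg adjusted p under 0.05 over all genes tested. Shares are percentages of gene counts. Limits for a count of 0 (3 counts of a library) cover counting error only, because PCR copies of a molecule are counted separately.

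Named are the 15 messenger and ribosomal genes, tRNA genes with a mean CPM of at least 1 in a table, the smallest p of a comparison, and from the lists up to 3 called genes with the largest change at a mean CPM of at least 1, plus Tfam, Polrmt and Ppargc1a. Other tRNA genes and other members with small p were named after their values were seen. Copies were sought with blastn 2.17.0 among annotated transcripts rather than in the genome, which was not used here. 1 list gene, Prorp, was not matched.

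Alternatives were other scalings, filters, DESeq2, a silent-gene density covariate, a replicate block and leaving out each library. The density is the median CPM per kb of protein-coding genes on autosomes, 5 kb or longer, with no count in bulk. Counts of the 72 replicate pairs differed beyond sampling noise (chi-square over its degrees of freedom 1.88 to 66.4). Strand use, multimapped reads and the annotation release are not given in the sources used here. The procedure was tested on simulated data.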

Additional observations from a re-analysis of the deposited data

Results flagged for a closer look

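In groups of 4 or 5 libraries, 230 sets of values were searched for a library far from the rest, and 22 stood out; chance marks about 1 in 20 sets, and the sets share libraries and genes.

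D2 male EGFP replicate 4 stood highest in 7 of them. Its messenger share was 0.0451% where the next library had 0.0218%, and its tRNA share 0.00415% where the next had 0.00222%. Its level was 66.4 CPM per kb for mt-Co1, 48.6 for mt-Nd2, 7.95 for mt-Nd3, 28.4 for mt-Nd4 and 57.4 for mt-Nd5. D1 male RXRa replicate 1 stood highest in messenger share (0.0183%), mt-Nd4 (13.02 CPM per kb) and mt-Nd5 (29.3 CPM per kb). D2 male RXRa replicate 3 stood highest in tRNA share (0.00339%) and mt-Co2 (2.07 CPM per kb). D1 female EGFP replicate 2 stood highest in ribosomal counts per messenger count (1.22) and mt-Rnr2 (66.9 CPM per kb).

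Single values also stood apart in other libraries. The tRNA share of bulk RXRa replicate 3 was lowest at 0.00485%. mt-Nd6 was lowest in D1 female RXRa replicate 5 at 12.2 CPM per kb, mt-Nd3 highest in D1 male EGFP replicate 3 at 3.66, and mt-Atp6 highest in D1 female EGFP replicate 4 at 0.486. mt-Atp8 was highest where the other libraries of the group had 0 counts, at 0.229 CPM per kb in D1 female RXRa replicate 5, 0.240 in D1 male EGFP replicate 3, 0.302 in D2 female EGFP replicate 4 and 0.371 in D2 female RXRa replicate 2.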

How the results depend on the processing

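The count of 0 called mitochondrial genes held in all 11 comparisons under every alternative run, except in D2 over both sexes, where leaving out 1 library gave 0 to 2, and the lowest adjusted p over its alternatives ran from 0.0289 to 1.0. With the replicate number as a block the count was 0 in each comparison, although whether the numbers pair the samples is not known. Deviations of same-numbered bulk libraries correlated from -0.528 to 0.489, with 1 of 4 best matched to its own number, and the block gave 0 called genes of all genes in bulk. In sorted nuclei 2 of 4 in D1 female, 0 of 4 in D1 male, 0 of 3 in D2 female and 2 of 4 in D2 male matched best. The bulk RXRa share was 1.68% of the other genes and 1.69% of protein-coding genes. No other group share moved by more than its SD, and 943 of 945 levels per kb did not either. Reversals lay near 0. Without 1 library, Polrmt in bulk ran from -0.0362 to 0.0467, Ppargc1a in bulk from -0.0456 to 0.186, Tfam in D1 from -0.0241 to 0.0369 and Polrmt in D1 from -0.00452 to 0.137. With library totals only, Tfam was -0.0569 and Polrmt -0.0228 in D1 and Ppargc1a -0.0448 in D2. With the silent-gene density covariate, Tfam was -0.0530 and Polrmt -0.0846 in D1. The cause was not tested. Counts over all genes moved by over 1.5 times with DESeq2 in bulk (1598), D2 female (3027), D2 male (39), D1 female (4), the sex difference in D1 (2) and D2 against D1 (92, from 53). Without 1 library the bulk count ran from 9 (without GFP replicate 4) to 1016, and the D2 count from 0 (without female RXRa replicate 4) to 14763 (without male RXRa replicate 1). D2 female reached 6701 without RXRa replicate 3 and D2 male 5985 without RXRa replicate 1. In sorted nuclei the tRNA genes and the messengers of the copied stretch had medians of 33 counts or fewer, which limits their precision.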

Other observations

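The library whose title and vector label name different vectors had 0.0527% of its counts on mitochondrial genes, 1.57 ribosomal counts per messenger count and 28.5 CPM per kb of mt-Co1.

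Of the 10 mitochondrial genes that did not pass the filter on low counts in bulk, all tRNA genes, 2 had groups that did not overlap, where 13.2% of the genes that passed it did not overlap. That share is over a different set, and none was worked out for the genes that failed the filter. mt-Ta, for alanine, ran from 1.57 to 2.56 CPM per kb with GFP and from 2.83 to 4.11 with RXRa, on 3 to 8 counts a library. Its raw counts met at 5, in GFP replicate 1 and in RXRa replicates 1 and 3. mt-Tr, for arginine, ran from 5.20 to 6.61 with GFP and from 2.71 to 4.59 with RXRa, on 4 to 12 counts. They were not tested, and were picked after their values were seen.

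In sorted nuclei the messenger with the highest median per kb was mt-Nd5 (20.7) and in bulk mt-Co1 (2664). The ratio of the bulk to the sorted median ran from 51.0 in mt-Nd6 and 61.1 in mt-Nd5 to 127 in mt-Nd1 and 130 in mt-Co1 among the 7 messengers with at most 59.2% of their windows in a copy, mt-Atp8 aside.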
